A study of Mus musculus with 8 samples.

Results

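The major urinary protein (Mup) family held 48 of the 46517 genes counted in livers of NASH diet–fed mice. Members were taken by name, as every counted gene whose Ensembl identifier carries in GENCODE M21 a symbol that starts with Mup and a number or with Mup-ps. They were 21 protein-coding genes and 27 pseudogenes, which are copies without an intact coding frame. On GRCm38, 47 members lay on chromosome 4 between 59956804 and 62150863, and the pseudogene Mup-ps22 lay on chromosome 11. GENCODE M21 lists 49 such symbols, and Mup22 was not analysed here.

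Mups are small secreted proteins of the lipocalin superfamily, which carry hydrophobic ligands in a barrel-shaped pocket. Hepatocytes make most of them and release them into the blood, from which they pass into urine and bind the volatile signals of scent marks. Livers of male mice make more than livers of females, under the pulsed release of growth hormone acting through STAT5B, with thyroid hormone and glucocorticoid also needed.

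Whole liver RNA came from 4 MøFoxO1-KO mice and 4 WT littermates, and the comparison asked how the liver transcriptome differed when myeloid cells lacked FoxO1. All 8 mice were C57BL/6 males aged 31 weeks on a NASH-inducing diet, begun at 6 weeks and kept up for 25 weeks, with a 16-hour fast at the end. Both groups carried FoxO1 loxP/loxP alleles, and MøFoxO1-KO mice also carried Lyz2-Cre, whose lysozyme promoter drives Cre in myeloid cells, whereas Mups are made by hepatocytes. In whole liver RNA, fewer hepatocytes and less RNA per hepatocyte cannot be told apart.

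Total counts ran from 15253218 to 18025481 a mouse. Foxo1, the targeted gene, had 422, 467, 328 and 461 counts in WT replicates 22, 23, 24 and 25 and 448, 253, 438 and 259 counts in MøFoxO1-KO replicates 26, 27, 28 and 29. These values overlapped, and whole liver RNA does not separate myeloid Foxo1 from that of other cells. The labelled sex was met in all 8 mice, with 0 to 6 counts for Xist, the RNA of the inactive X chromosome, and 846 to 1183 for the Y-linked Ddx3y. The summed normalized counts of 10 hepatocyte markers ran from 1149318 to 1611833 for WT and from 1356698 to 2032203 for MøFoxO1-KO livers. None of these 10 markers was at 0. Within the Mup family, some livers stood apart. MøFoxO1-KO replicate 27 was the highest of its group in 20 of 23 tested members, replicate 29 was the lowest in 15, and WT replicate 23 was the lowest of its group in 14.

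The sequences show why members cannot be read alike. Of the 21 genes, 15 (Mup1, Mup2 and Mup7 to Mup19) each shared at least 98% of their coding bases with 14 other members, and they are called the near-identical genes here. The other 6 (Mup3, Mup4, Mup5, Mup6, Mup20 and Mup21) had no partner at that level. Mup3 and Mup21 were closest to each other at 94.7%, and Mup20 reached 91.3% with Mup11. The stretch of 60 bases below, from the start of the coding part of exon 2, is given for the members on which the results turn, with capitals at each base that differs from Mup7. The reference is GRCm38, and all of these genes lie on the minus strand.
Mup7, chr4:60069807-60069866: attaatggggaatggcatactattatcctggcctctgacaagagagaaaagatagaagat
Mup1, chr4:60501356-60501415: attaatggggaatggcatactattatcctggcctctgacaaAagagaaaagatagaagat
Mup12, chr4:60740722-60740781: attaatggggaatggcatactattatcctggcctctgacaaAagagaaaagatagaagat
Mup10, chr4:60581595-60581654: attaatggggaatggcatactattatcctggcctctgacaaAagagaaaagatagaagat
Mup16, chr4:61518927-61518986: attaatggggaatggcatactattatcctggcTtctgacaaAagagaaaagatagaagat
Mup17, chr4:61595267-61595326: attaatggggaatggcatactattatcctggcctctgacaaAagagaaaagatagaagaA
Mup20, chr4:62053554-62053613: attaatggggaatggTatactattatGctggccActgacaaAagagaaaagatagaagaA
Mup3, chr4:62086874-62086933: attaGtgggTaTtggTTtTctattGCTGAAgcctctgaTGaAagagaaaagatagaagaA
Mup21, chr4:62150269-62150328: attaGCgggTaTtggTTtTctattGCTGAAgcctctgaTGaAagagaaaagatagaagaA
Mup1, Mup12 and Mup10 were identical over these 60 bases, whereas Mup3 differed from Mup7 at 16 of them and Mup21 at 17.

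How much of a member can be told from the rest of the transcriptome follows from such likeness. Of all windows of 100 bases in the annotated transcripts of a member, the share found in no other gene of GENCODE M21 was 97.8% for Mup3, 95.5% for Mup21 and 61.2% for Mup20. Among the 15 near-identical genes this share ran from 0% for Mup19 to 44.3% for Mup1, with 23.9% for Mup7, 22.5% for Mup12 and 2.66% for Mup15. Mup19 nonetheless held between 3 and 237 counts. The read length and the handling of multi-mapping reads are not given in the sources used here, so values of single near-identical genes are uncertain. Their sum is given beside them. Reads dropped for matching several genes would be missing from that sum, from the family sum and from the shares below. Whether such reads were dropped cannot be told from these counts.

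The family as a whole had more counts in MøFoxO1-KO livers. The 48 members together took 0.626, 0.645, 1.11 and 0.773% of all counts in WT replicates 22, 23, 24 and 25, and 1.49, 1.97, 1.25 and 1.28% in MøFoxO1-KO replicates 26, 27, 28 and 29. Every MøFoxO1-KO liver lay above every WT liver. Normalized to library size after edgeR's TMM scaling, the family sum had a mean of 121397 (SD 26368, n = 4) for WT and of 261505 (SD 69222, n = 4) for MøFoxO1-KO livers, a ratio of 2.15 or 1.11 on the log2 scale. The ratio is a description, and no test was run on sums over members. With 1 mouse left out at a time, log2 ratios ran from 0.91 to 1.26, and leaving out Mup3 gave 0.59, with groups that then overlapped.

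Mup3 and Mup20 supplied most of these counts in each liver. The share of Mup3 in the family sum averaged 54.9% (SD 17.5, n = 4) for WT and 69.3% (SD 6.52, n = 4) for MøFoxO1-KO livers, and that of Mup20 was 40.7 ± 18.4% and 19.5 ± 0.782%. WT livers varied widely in this balance. Mup3 had 1.95, 0.605, 0.883 and 3.85 counts for each Mup20 count in WT replicates 22, 23, 24 and 25, against 3.45, 3.17, 3.97 and 3.67 in MøFoxO1-KO replicates 26, 27, 28 and 29. The 4 MøFoxO1-KO livers lay close together, and WT replicate 25 lay among them. Dividing counts by exon length before taking shares gave 52.0% in WT and 67.0% in MøFoxO1-KO livers for Mup3, and 43.7% and 21.6% for Mup20.

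**Figure D1:**
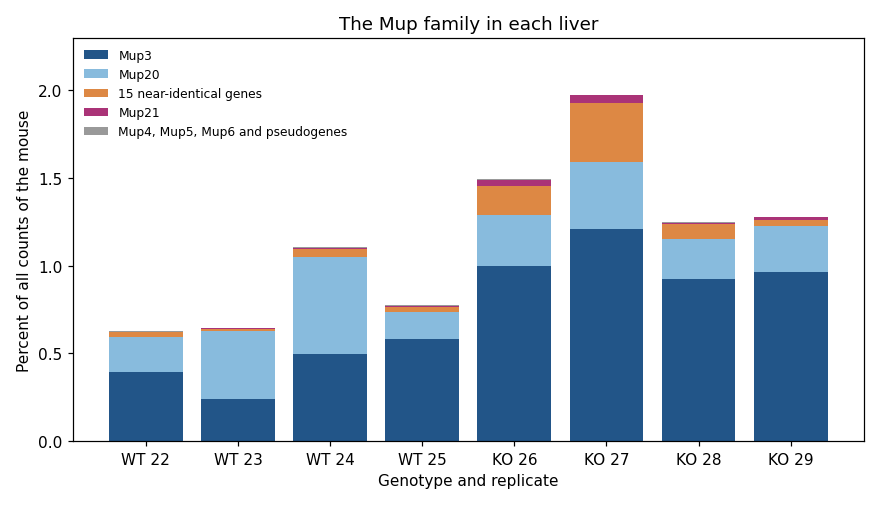
Stacked bars give the percent of all counts of each liver that fell on Mup3, Mup20, the 15 near-identical genes, Mup21 and the remaining members (y axis), by genotype and replicate (x axis, KO for MøFoxO1-KO). The 4 MøFoxO1-KO bars end between 1.25 and 1.97% and the 4 WT bars between 0.626 and 1.11%, with the largest near-identical part in replicate 27.

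The near-identical genes held few of the assigned counts, which may lack reads that match several genes, and varied widely between MøFoxO1-KO livers. Their sum was 4139, 1933, 6702 and 4764 counts in WT replicates 22, 23, 24 and 25 and 30058, 51356, 14058 and 5460 in MøFoxO1-KO replicates 26, 27, 28 and 29. After normalization, WT replicate 24 at 6186 lay just above MøFoxO1-KO replicate 29 at 6112, so the groups overlapped. The means were 4177 ± 1791 and 27400 ± 24525 normalized counts (SD, n = 4 each), a log2 ratio of 2.71, which fell to 1.95 without replicate 27 and was 3.05 without replicate 29. Their share of the family sum ran from 1.78 to 3.96% in WT and from 2.72 to 17.0% in MøFoxO1-KO livers.

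Among single members, 23 passed edgeR's filter on low counts and were tested, 17 of the 21 genes and 6 of the 27 pseudogenes. Mup-ps6 passed through its counts in MøFoxO1-KO livers alone, which fixes its direction, so counts of members are given for the 22 others. To be called, a gene needed a Benjamini-Hochberg adjusted P under 0.05 together with a log2 fold change beyond 1.5 in either direction. Over the whole table, 0.188% of 13278 tested genes were called, 0.0527% higher and 0.136% lower in MøFoxO1-KO livers. In the Mup family 2 members, Mup1 and Mup12, were called higher by edgeR and none lower. Both also made up the members with an adjusted P under 0.05 alone, which 0.294% of all tested genes had. DESeq2's Wald test called 6 members higher, Mup1, Mup7, Mup12, Mup14, Mup16 and Mup21, and none lower, where it called 1.08% of all tested genes and 0.520% higher. Limma-voom called 1 member higher, where it called 0.0979% of all tested genes and 0.0377% higher. Without a filter beyond 1 count, edgeR called 6 members higher, also without Mup-ps6, beside 0.507% of all genes then tested and 0.228% higher. At an unadjusted P under 0.05, 10 of the 22 were higher and 1 was lower, where 8.65% of all tested genes were higher and 8.06% lower. The log2 fold change was above 0 in 19 of the 22, including all 17 tested genes, against 48.3% of all tested genes. Its median was 2.18 over the 17 genes and -0.33 over the 5 pseudogenes, beside -0.01 over all tested genes. The 22 members are not independent, since 14 of them are near-identical genes whose reads can be mixed up. Counts below are listed in the order WT replicates 22, 23, 24 and 25 and then MøFoxO1-KO replicates 26, 27, 28 and 29.

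Mup1 (ENSMUSG00000078683, chr4:60498012-60501960), a secreted Mup that has been tied to glucose metabolism, had 59, 28, 30 and 53 counts in WT and 390, 470, 179 and 265 in MøFoxO1-KO livers. All MøFoxO1-KO livers lay above all WT livers. Mean normalized counts were 40.8 ± 15.3 and 350 ± 164 (SD, n = 4 each), and the fitted log2 fold change was 3.10 (standard error 0.39, edgeR's adjusted P = 0.0171). An exact two-sided permutation test gave P = 0.0286, the smallest that 4 against 4 mice allow. Mup1 was called in 6 of 8 fits that left out 1 mouse each, and not without WT replicate 25 or MøFoxO1-KO replicate 26.

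Mup12 (ENSMUSG00000094793, chr4:60737383-60741326) had 214, 38, 71 and 124 counts in WT and 1195, 1995, 817 and 817 in MøFoxO1-KO livers. Its groups did not overlap either, and the lowest WT liver was again replicate 23. Mean normalized counts were 107 ± 72.1 and 1305 ± 735 (SD, n = 4 each), and the fitted log2 fold change was 3.61 (standard error 0.53, edgeR's adjusted P = 0.0337). The call held in 3 of 8 fits that left out 1 mouse each, without WT replicate 22 or 23 or without MøFoxO1-KO replicate 28.

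Another 5 members, Mup3, Mup7, Mup14, Mup16 and Mup21, had every MøFoxO1-KO liver above every WT liver but were not called by edgeR, which makes 7 of 22, beside 5.00% of all tested genes in that direction. Of the 7, 5 were near-identical genes, which are not independent members. No tested member had every MøFoxO1-KO liver below every WT liver, which 4.71% of all tested genes had. Among Mup3, Mup7, Mup14, Mup16 and Mup21, DESeq2's Wald test and edgeR without the filter called all but Mup3. Mup7 (ENSMUSG00000073842, chr4:60066469-60070475) had 798, 13, 345 and 185 counts in WT and 19057, 20429, 6143 and 1491 in MøFoxO1-KO livers. The spread within each group was wide, and WT replicate 23 was far below the other WT livers. Its mean was 316 ± 314 normalized counts in WT and 12541 ± 10593 in MøFoxO1-KO livers (SD, n = 4 each), and the fitted log2 fold change was 5.31 (standard error 1.12, edgeR's adjusted P = 0.0968).

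Mup16 had 21, 15, 49 and 28 counts in WT and 595, 1027, 101 and 102 in MøFoxO1-KO livers, and the fitted log2 fold change was 4.21 (standard error 0.84, adjusted P = 0.0851). Mup14 had 117, 36, 162 and 36 counts in WT and 710, 1030, 383 and 201 in MøFoxO1-KO livers, and the fitted log2 fold change was 2.91 (standard error 0.61, adjusted P = 0.0968). In both genes replicates 26 and 27 were well above replicates 28 and 29. The pseudogene Mup-ps6 had 0, 6, 1 and 0 counts in WT and 32, 18, 16 and 14 in MøFoxO1-KO livers, without overlap, and no test is read from it because of the filter. It shares 111 exon bases on the same strand with the noncoding Gm13773, which had 0 to 2 counts in WT and 5 to 8 in MøFoxO1-KO livers.

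The same order of groups was found in Mup3 and Mup21, whose sequences are the most distinct among the members with many counts. Mup3 (ENSMUSG00000066154, chr4:62083476-62087342) had 65542, 39894, 76085 and 93635 counts in WT and 179995, 184410, 158570 and 151008 in MøFoxO1-KO livers. The means were 66016 ± 22335 and 178079 ± 29730 normalized counts (SD, n = 4 each), and the fitted log2 fold change was 1.43 (standard error 0.25, adjusted P = 0.0570), short of both limits. Mup21 (ENSMUSG00000066153, chr4:62147932-62150863) had 825, 378, 1279 and 811 counts in WT and 6483, 6934, 1786 and 2951 in MøFoxO1-KO livers. The log2 fold change was 2.64 (standard error 0.49, adjusted P = 0.0654). Without MøFoxO1-KO replicate 28, Mup3, Mup16 and Mup21 were also called, which made 5 members.

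**Figure D2:**
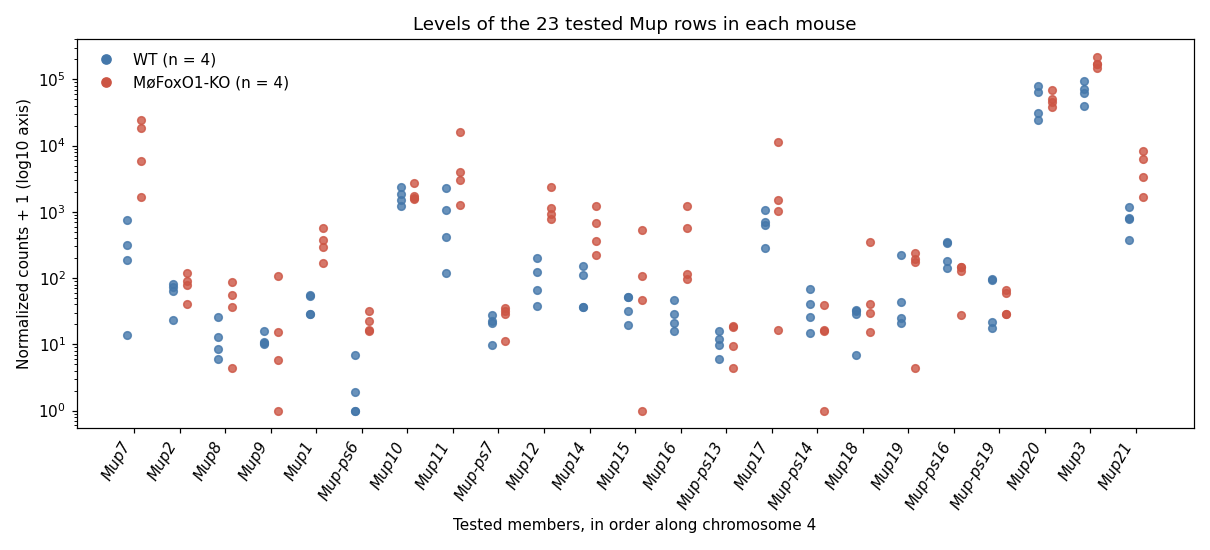
Each point is the normalized count of 1 liver plus 1 on a log10 axis (y axis) for the 23 tested members in their order along chromosome 4 (x axis), with WT in blue and MøFoxO1-KO in red (n = 4 each). The groups do not overlap for Mup7, Mup1, Mup-ps6, Mup12, Mup14, Mup16, Mup3 and Mup21, while Mup10 and Mup20 lie at like levels in both groups.

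Mup20 (ENSMUSG00000078672, chr4:62050234-62054158) encodes darcin, the male pheromone that draws females to a scent mark. It had 33592, 65957, 86138 and 24295 counts in WT and 52153, 58242, 39927 and 41126 in MøFoxO1-KO livers. WT livers lay on both sides of the MøFoxO1-KO range. The means were 50002 ± 26462 and 50871 ± 13439 normalized counts (SD, n = 4 each), and the fitted log2 fold change was 0.02 (standard error 0.36, adjusted P = 0.981), and leaving out each mouse gave values from -0.21 to 0.34. Per kilobase of exon, Mup20 had a mean of 53882 normalized counts in WT and 54817 in MøFoxO1-KO livers, next to 61813 and 166740 for Mup3.

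Mup10, the most abundant near-identical gene of WT livers, was likewise close between groups. It had 1607, 1263, 2036 and 2360 counts in WT and 1814, 2261, 1732 and 1373 in MøFoxO1-KO livers, and the fitted log2 fold change was 0.13 (standard error 0.23, adjusted P = 0.825). Its values from leaving out each mouse, -0.08 to 0.30, lay on both sides of 0. Mup2 had 86, 65, 24 and 74 counts in WT and 123, 75, 82 and 35 in MøFoxO1-KO livers (log2 fold change 0.44, standard error 0.42, or 0.16 without WT replicate 24). These groups overlapped, and a P above the limit does not show that levels were equal.

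The make-up of the near-identical genes differed accordingly. Mup10 held between 30.4 and 65.3% of their counts in WT livers and between 4.40 and 25.1% in MøFoxO1-KO livers. Mup7 held from 0.673 to 19.3% in WT and from 27.3 to 63.4% in MøFoxO1-KO livers. Neither range overlapped between the groups. Mup11 held from 6.31 to 36.7% in WT and from 13.8 to 26.3% in MøFoxO1-KO livers, which overlapped. In MøFoxO1-KO replicate 29, Mup12 reached 15.0% and Mup1 4.85%, both the highest of the 8 livers, while Mup17, with 14 counts, was at the lowest share of the 8.

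**Figure D3:**
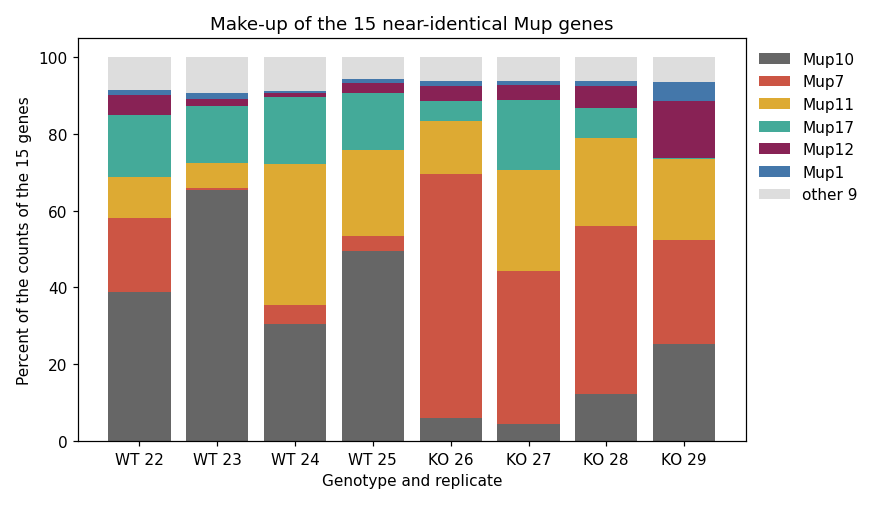
Stacked bars give the percent of the summed counts of the 15 near-identical genes held by Mup10, Mup7, Mup11, Mup17, Mup12, Mup1 and the other 9 genes (y axis), by genotype and replicate (x axis, KO for MøFoxO1-KO). Mup10 is largest in WT replicates 22, 23 and 25, and Mup7 is the largest part in all 4 MøFoxO1-KO livers.

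In several other near-identical genes MøFoxO1-KO replicate 27 weighed heavily. Mup11 had 446, 122, 2460 and 1064 counts in WT and 4159, 13516, 3233 and 1143 in MøFoxO1-KO livers, and the fitted log2 fold change was 2.66 (standard error 0.93, adjusted P = 0.210), or 1.52 without replicate 27. Mup17 had 665, 287, 1161 and 711 counts in WT and 1596, 9452, 1074 and 14 in MøFoxO1-KO livers, so that this group held both the highest and the lowest of the 8 values. The log2 fold change was 2.37 (standard error 1.19, adjusted P = 0.356), or 0.35 without replicate 27.

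Mup15 had 54, 19, 55 and 31 counts in WT and 113, 448, 48 and 0 in MøFoxO1-KO livers (log2 fold change 2.18, or 0.45 without replicate 27). Mup18 had 33, 6, 35 and 28 counts in WT and 42, 291, 30 and 13 in MøFoxO1-KO livers (log2 fold change 2.13, or 0.20 without replicate 27). In both, replicate 29 was the lowest of its group. Mup9 had 10, 10, 10 and 15 counts in WT and 5, 90, 15 and 0 in MøFoxO1-KO livers, and its log2 fold change of 1.51 became -0.72 without replicate 27. Mup8 had 8, 5, 27 and 12 counts in WT and 57, 72, 38 and 3 in MøFoxO1-KO livers (log2 fold change 1.85, standard error 0.76, adjusted P = 0.260), and was above all WT livers in 3 of 4. Mup19 had 21, 24, 237 and 43 counts in WT and 202, 196, 182 and 3 in MøFoxO1-KO livers (log2 fold change 0.98, or 2.39 without WT replicate 24), with 1 liver apart from the others in each group.

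The pseudogenes held a small and, in MøFoxO1-KO livers, a smaller part of the family. They had 334, 387, 554 and 459 counts in WT and 378, 305, 300 and 94 in MøFoxO1-KO livers, and after normalization 415 ± 86.9 and 279 ± 122 (SD, n = 4 each), with overlap. Their share of the family sum ran from 0.320 to 0.370% in WT and from 0.0468 to 0.140% in MøFoxO1-KO livers, with no overlap. Against WT, the mean family sum of MøFoxO1-KO livers was 2.15 times as high and the mean pseudogene sum 0.672 times. Mup-ps16 alone had 250 ± 107 normalized counts in WT and 112 ± 57.5 in MøFoxO1-KO livers (SD, n = 4 each). The lower pseudogene sum thus rested on this row.

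Mup-ps16 was the only tested member lower at an unadjusted P under 0.05. It had 148, 182, 360 and 352 counts in WT and 153, 107, 155 and 24 in MøFoxO1-KO livers, and the fitted log2 fold change was -1.15 (standard error 0.47, adjusted P = 0.255). It shares 262 exon bases on the same strand with the noncoding Gm13775, which had 411, 417, 507 and 631 counts in WT and 339, 346, 362 and 55 in MøFoxO1-KO livers, so reads of both cannot be fully told apart. Mup-ps14 had 73, 41, 15 and 25 counts in WT and 16, 32, 16 and 0 in MøFoxO1-KO livers (log2 fold change -1.11). Mup-ps19 had 18, 96, 100 and 21 against 61, 54, 29 and 25 counts (log2 fold change -0.33), Mup-ps7 had 21, 9, 29 and 22 against 29, 29, 33 and 9 (log2 fold change 0.42), and Mup-ps13 had 12, 9, 16 and 5 against 18, 15, 9 and 3 (log2 fold change 0.23). All 4 of these overlapped between groups.

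The remaining 25 members, 4 genes and 21 pseudogenes, did not pass the filter. Mup4 had 0 to 4 counts in WT and 0 to 1 in MøFoxO1-KO livers, Mup5 had 0 and 0 to 1, Mup6 had 0 to 6 and 1 to 4, and Mup13 had 0 to 2 and 0 to 4. Mup4 and Mup5 are known from glands of the head rather than from liver. Mup-ps15 had 3, 2, 1 and 4 counts in WT and 20, 22, 8 and 8 in MøFoxO1-KO livers, without overlap but too few for the filter. Mup-ps12 had 5 to 28 counts in WT and 0 to 11 in MøFoxO1-KO livers. Mup-ps2 had 2 to 13 and 1 to 13, Mup-ps8 had 0 to 12 and 5 to 14, Mup-ps10 had 4 to 11 and 0 to 5, Mup-ps20 had 0 to 3 and 0 to 15, and Mup-ps4 had 0 to 5 and 0 to 2. Mup-ps1, Mup-ps17, Mup-ps18, Mup-ps21, Mup-ps22 and Mup-ps23 had at most 5 counts in a liver. Mup-ps3, Mup-ps5, Mup-ps9, Mup-ps11, Mup-ps24, Mup-ps26, Mup-ps28 and Mup-ps29, 8 in all, had none, and a count of 0 allows up to 3 by counting error alone. Of the windows of 100 bases in Mup-ps3 and Mup-ps11, 0% were found in no other gene. Reads from these pseudogenes could thus not be told from reads of other genes.

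Promoter windows of 250 bases before the start were present in the RefSeq table (GRCm38.p6) for 14 of the 21 genes. The longest run shared by all 14 was aaatcaatc. It was picked from these same windows, so its presence in each of them was fixed beforehand. It occurred in 71 of all 32851 windows of 250 bases. TATATAA, searched after the windows had been read, was in 11 of the 14 and in 3.04% of all windows. The windows without it, of Mup7, Mup11 and Mup14, ended before or within the stretch where the other windows held it. Its absence from their promoters therefore cannot be read from these windows. TTCNNNGAA, the letters that STAT5 binds, was in none of the 14 genes' windows and in 7.02% of all windows, and TGTTTAC, a forkhead type of site, was in none of the 14 and in 3.17%. TATAAA was in 2 of the 14 and in 12.4% of all windows. The RefSeq table also held 24 windows, many of them overlapping, of Mup-ps12, Mup-ps15 and Mup-ps16, and TGTTTAC was in 8 of 9, 1 of 5 and 8 of 10 of these. Both strands were searched, and TATATAA and TATAAA overlapped in Mup4 and Mup6. The windows of Mup3, with every MøFoxO1-KO liver above every WT liver, and of Mup10, with groups that overlapped, are given below. Both genes lie on the minus strand, and capitals mark TATATAA as found on either strand. In Mup10 a hit on each strand overlapped, so the capitals there read TTATATAA.
Mup3, chr4:62087318-62087567: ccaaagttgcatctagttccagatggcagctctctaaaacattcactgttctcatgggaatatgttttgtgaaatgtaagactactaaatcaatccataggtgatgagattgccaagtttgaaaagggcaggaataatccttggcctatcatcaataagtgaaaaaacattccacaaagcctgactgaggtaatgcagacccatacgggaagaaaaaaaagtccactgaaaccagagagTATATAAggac
Mup10, chr4:60582156-60582405: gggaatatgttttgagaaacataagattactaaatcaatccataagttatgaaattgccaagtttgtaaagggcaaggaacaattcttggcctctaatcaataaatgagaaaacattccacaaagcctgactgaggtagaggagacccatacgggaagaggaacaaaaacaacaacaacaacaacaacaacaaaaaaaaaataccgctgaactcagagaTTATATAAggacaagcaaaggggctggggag
These letters describe the windows only, and the windows of Mup1, Mup12, Mup16 and Mup20 were not among them.

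Genes beside the cluster did not show differences of this size. Within 1000000 bases of the cluster or inside it, 22 other genes were tested and none was called by edgeR, DESeq2's Wald test or limma-voom. An unadjusted P under 0.05 was found in 5 of the 22, where 8.65% of all tested genes were higher and 8.06% lower. The 20 outside the cluster had log2 fold changes between -0.33 and 0.60 with a median of 0.06. Every MøFoxO1-KO liver lay above every WT liver in 3 of these 20, Hdhd3 (0.60), Alad (0.46) and Ambp (0.54), beside 5.00% of all tested genes. Every MøFoxO1-KO liver lay below every WT liver in 1, Ptbp3 (-0.32), beside 4.71%. The nearest tested genes were Snx30, a sorting nexin, at 113, 134, 135 and 94 counts in WT and 103, 65, 116 and 103 in MøFoxO1-KO livers (log2 fold change -0.18), and Slc31a2, a copper transporter, at 156, 138, 167 and 151 and 221, 175, 109 and 145 (log2 fold change 0.23). Snx30 lay 52067 and Slc31a2 111699 bases from the cluster.

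**Figure D4:**
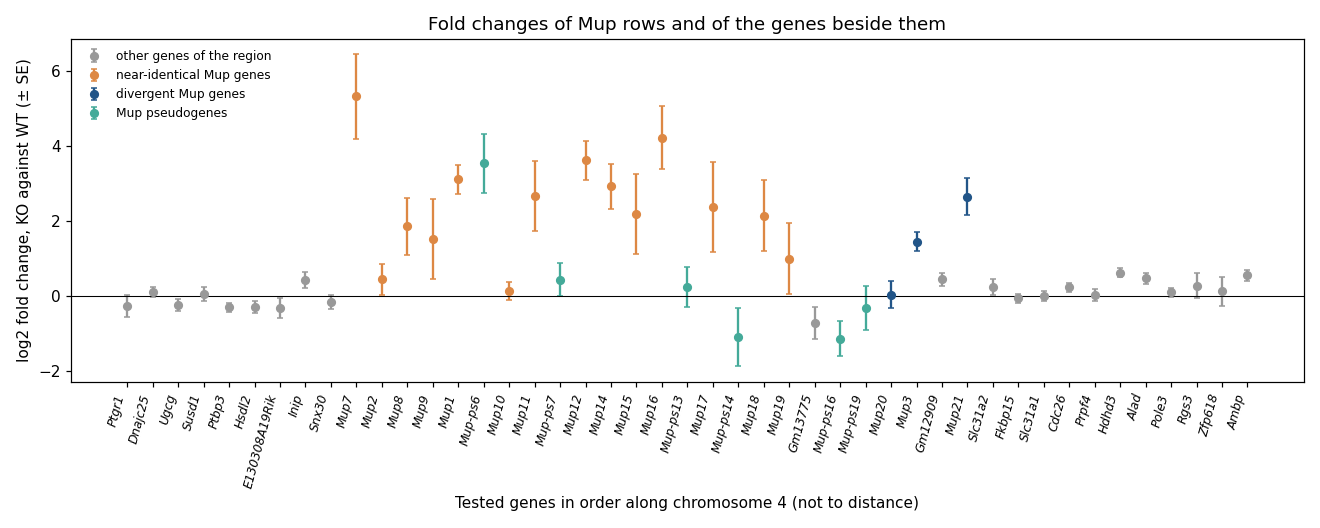
Points give the edgeR log2 fold change of MøFoxO1-KO against WT livers with its standard error (y axis) for the 23 tested Mup members and the 22 tested genes inside or beside the cluster, in their order along chromosome 4 and not to distance (x axis). Genes outside the cluster lie between -0.33 and 0.60, Mup genes between 0.02 and 5.31.

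The wider group of lipocalins was compared next, since Mups belong to it. Of 9 tested lipocalins outside the family, 6 were higher at an unadjusted P under 0.05, 1 was lower and none was called by edgeR, DESeq2 or limma-voom. At that limit 8.65% of all tested genes were higher and 8.06% lower. Every MøFoxO1-KO liver lay above every WT liver in 4 of the 9, beside 5.00% of all tested genes, and below in none, beside 4.71%. The median log2 fold change of the 9 was 0.54, and this list shares Ambp with the genes beside the cluster.

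Genes of growth hormone and STAT5 signaling had values in both directions. Of 15 tested, none was called by edgeR, DESeq2 or limma-voom, and the median log2 fold change was -0.12. At an unadjusted P under 0.05, 3 were higher and 1 was lower, beside 8.65% and 8.06% of all tested genes. Ghr, the growth hormone receptor, had 8076 ± 1946 normalized counts in WT and 9292 ± 1732 in MøFoxO1-KO livers (SD, n = 4 each; log2 fold change 0.20, adjusted P = 0.670). Stat5b, which carries the signal to the nucleus, had 907 ± 196 and 731 ± 18.7 (log2 fold change -0.31, adjusted P = 0.315), and its relative Stat5a 311 ± 53.9 and 180 ± 25.2 (log2 fold change -0.79, adjusted P = 0.0851). Every MøFoxO1-KO liver lay below every WT liver for both. Igf1, the growth factor that growth hormone induces in liver, had a log2 fold change of 0.55 (adjusted P = 0.176), with overlap. Igfals, the subunit that holds IGF1 in the blood, had 0.69 (adjusted P = 0.152), with every MøFoxO1-KO liver above every WT liver. Socs1, a signaling inhibitor, had 1.05 (adjusted P = 0.267), with overlap.

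Transcription regulators tied to Mup genes had values mostly below 0. None of 16 tested was called by edgeR, DESeq2 or limma-voom. Of these, 14 had a log2 fold change below 0, and the median was -0.21. At an unadjusted P under 0.05, 3 were lower and 1 was higher, beside 8.06% and 8.65% of all tested genes. Zhx2, a homeobox regulator needed for full Mup expression in adult liver, had 224 ± 31.8 normalized counts in WT and 167 ± 31.4 in MøFoxO1-KO livers (SD, n = 4 each; log2 fold change -0.42, adjusted P = 0.254). Thra, a thyroid hormone receptor, had a log2 fold change of -0.32 (adjusted P = 0.204) and Foxa3, a forkhead factor of hepatocytes, 0.37 (adjusted P = 0.282). For Zhx2 and Thra every MøFoxO1-KO liver lay below every WT liver, and for Foxa3 the groups overlapped.

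Other genes whose level differs between the sexes in liver were compared as well. In the list of male-biased genes, all 19 tested had a log2 fold change above 0, with a median of 1.61. At an unadjusted P under 0.05, 16 were higher and none lower, beside 8.65% and 8.06% of all tested genes. Every MøFoxO1-KO liver lay above every WT liver in 14 and below in none, beside 5.00% and 4.71%. Called higher by edgeR were 4 of the 19, beside 0.0527% of all tested genes. They were Hsd3b5 (log2 fold change 6.64) and Cyp7b1 (2.07), which act on steroids, C8b (1.74), a complement component, and Susd4 (2.59), a complement inhibitor, with adjusted P values between 0.0136 and 0.0370. In the list of female-biased genes, 14 of 15 tested were below 0, with a median of -2.53. At an unadjusted P under 0.05, 10 were lower and 1 was higher. Every MøFoxO1-KO liver lay below every WT liver in 8 and above in none. Called lower by edgeR were 5 of the 15, beside 0.136% of all tested genes. These were the cytochromes P450 Cyp2a4 (-3.35), Cyp2a22 (-2.68), Cyp2c38 (-2.12) and Cyp39a1 (-3.47) and the hydroxyacid oxidase Hao2 (-5.12), with adjusted P values between 0.0136 and 0.0337. Both lists were written with earlier results on some of these genes known and are a description only. The female-biased counts and median include Cyp2c40, which passed the filter through its WT counts, so its direction was fixed. It had 32, 35, 33 and 119 counts in WT and 3, 6, 14 and 9 in MøFoxO1-KO livers. Cyp2c40 is also among the genes that DESeq2 called lower. Over the gene lists other than cell type markers, the 9 calls became 1 without WT replicate 25, 5 without MøFoxO1-KO replicate 26, and 4 without replicate 27, while DESeq2 called 11 male-biased genes higher, and 8 female-biased genes lower and 1 higher.

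**Figure D5:**
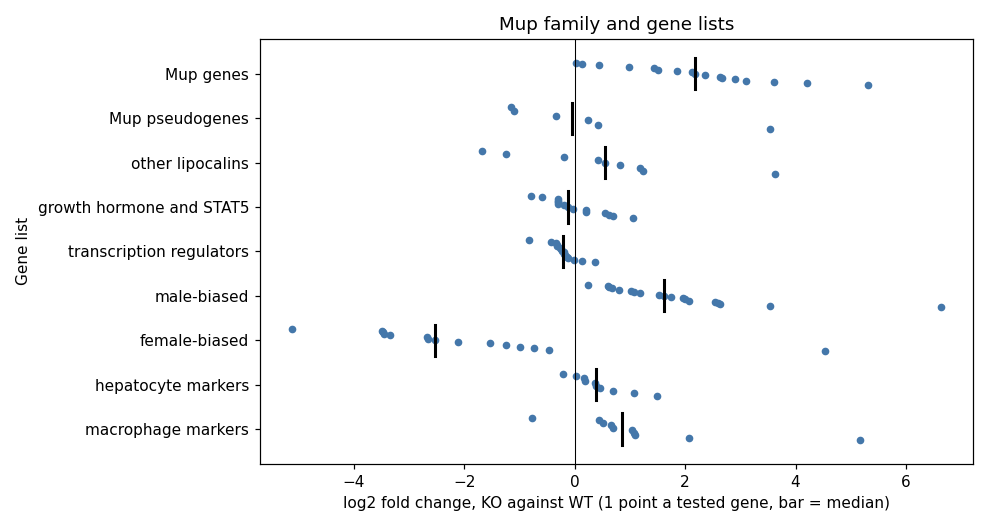
Each point is the edgeR log2 fold change of a tested gene, MøFoxO1-KO against WT livers (x axis), for the Mup genes, the Mup pseudogenes and 7 gene lists (y axis), and the bar is the median. The medians lie at 2.18 for Mup genes, 1.61 for male-biased genes and -2.53 for female-biased genes. Those of growth hormone signaling and transcription regulators lie at -0.12 and -0.21. The pseudogene points include Mup-ps6, with a median of -0.05, against -0.33 without it.

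Cell type markers moved with the groups to differing extents. For comparison, 8.65% of all tested genes were higher and 8.06% lower at an unadjusted P under 0.05. DESeq2 called 0.520% of all tested genes higher, and limma-voom called 0.0377% higher. Of 10 hepatocyte markers, 4 were higher at an unadjusted P under 0.05, none was called by edgeR or DESeq2 and 1 was called higher by limma-voom, with a median log2 fold change of 0.38. Of 10 macrophage markers, 5 were higher, none was called by edgeR or limma-voom and 2, Marco and Timd4, were called higher by DESeq2, with a median of 0.86, none at 0 in all livers, and a summed normalized level from 3318 to 5727 for WT and from 3624 to 15900 for MøFoxO1-KO livers. Of 8 stellate cell markers, 2 were lower at an unadjusted P under 0.05 and none was called by any of these tools. They were the collagen genes Col1a1 (log2 fold change -1.28, adjusted P = 0.193), with every MøFoxO1-KO liver below every WT liver, and Col3a1 (-0.76), with overlap. Of endothelial, cholangiocyte and lymphocyte markers, none had an unadjusted P under 0.05. Summed levels of stellate, endothelial, cholangiocyte and lymphocyte markers overlapped between the groups. The part of these cell types in the Mup values was not tested.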

How the data were processed

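Liver RNA of 8 mice was sequenced from polyadenylated RNA, and the labels put 4 mice in each genotype. The authors deposited raw read counts per Ensembl gene, without normalization. The submitters' processing notes name STAR, featureCounts and mm10 without versions. Strand setting, read length and multi-mapping are not given in the sources used here.

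Genes that passed filterByExpr (minimum count 10, minimum total 15) were scaled by TMM, and edgeR 4.0.16 in R 4.3.3 gave quasi-likelihood tests of 13278 genes, with Benjamini-Hochberg adjustment. On simulated counts for this comparison (13136 genes, 200 of them changed by 3 on the log2 scale), edgeR recovered 200 with 0 false calls. In the real counts, edgeR did not call Mup7 (log2 fold change 5.31, standard error 1.12) or Mup16 (4.21, standard error 0.84). How often edgeR would recover changes in members with such spread was not tested. Total counts of 15253218 to 18025481 per mouse limit the precision of members with few counts, and 0 counts allow up to 3. Permutation tests (scipy 1.17.1) were exact and two-sided. Tables and plots were made with pandas 2.3.3, numpy 2.4.6 and matplotlib 3.10.9 in Python 3.11.15. Replicates of a group differed far beyond sampling noise (chi-square per gene 29.6 to 100.4).

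Every tested Mup member is given by mouse and every other by its range. From the gene lists, called members are named, as well as growth hormone and regulator genes at an unadjusted P under 0.05, Ghr, Stat5b, Zhx2 and Foxo1 (1 regulator gene is not reported here), and of the neighbours the nearest tested gene on each side. Marco, Timd4, Col1a1, Col3a1, Cyp2c40, Gm13773, Gm13775, Hdhd3, Alad, Ambp and Ptbp3 were added after their values were seen. The members and lists were chosen with earlier results of these data known. Alternatives were DESeq2 1.42.0 and its size factors, limma-voom (limma 3.58.1), upper-quartile scaling, TMM without the Mup rows, the robust fit, other filters and thresholds, and leaving out each mouse. Leaving out Mup3, and leave-out values for the near-identical sum, for its share and for the count of members without overlap, were added after seeing the data. Coding identity was taken from GENCODE M21 transcripts and promoters from RefSeq GRCm38.p6.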

Additional observations from a re-analysis of the deposited data

Results flagged for a closer look

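Among 64 groups of 4 livers, 8 had a single liver far from the other 3 by Dixon's test, and chance gives about 1 in 20 groups. MøFoxO1-KO replicate 27 lay above its group with 107.5 normalized Mup9 counts (others 0 to 14.2), 11290 Mup17 counts (others 15.7 to 1530) and 347.5 Mup18 counts (others 14.6 to 40.3). MøFoxO1-KO replicate 29 lay below its group with 26.87 normalized Mup-ps16 counts (others 127.8 to 147.1). WT replicate 23 had 5.9 normalized Mup18 counts (others 27.9 to 32.3) and 5.9 Mup-ps6 counts (others 0 to 0.923). WT replicate 24 had 218.7 normalized Mup19 counts (others 19.7 to 42.8), and WT replicate 25 had 14.93 Mup9 counts (others 9.23 to 9.83).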

How the results depend on the processing

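Mup members called higher numbered 2 with edgeR, 7 with DESeq2 or with no filter beyond 1 count (both including Mup-ps6), 1 with limma-voom or the robust fit, 0 at an adjusted P under 0.01, and between 0 and 5 when 1 mouse was left out, with 0 without WT replicate 25 or MøFoxO1-KO replicate 26. Genes called over the whole table numbered 25 with edgeR, 120 with no filter beyond 1 count, 144 with DESeq2, 13 with limma-voom, 39 without the fold change limit, 1 at an adjusted P under 0.01, and between 3 and 82 with 1 mouse left out. Genes called in the 5 gene lists other than cell type markers numbered 9 with edgeR, 20 with DESeq2, and between 1 and 12 with 1 mouse left out. The cause of these differences was not tested. The log2 ratio of the family sum, 1.11, was 0.59 without Mup3, and the difference in the pseudogene share, -0.236 percentage points, was -0.410 with counts divided by exon length.

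Over 359 refits of single members, 324 kept the direction and the side of the limit, 14 gained a call and 9 lost one. Another 12 changed sign, all in members without a call. These numbers include Mup-ps6, which gained a call in some refits, although no test is read from it. With limma-voom the log2 fold change was -0.45 for Mup9 and -0.012 for Mup15. Leaving out 1 mouse gave -0.72 to 1.93 for Mup9, -0.082 to 0.30 for Mup10, -0.022 to 0.53 for Mup-ps13, -0.64 to 0.035 for Mup-ps19 and -0.21 to 0.34 for Mup20. The sign changes came without MøFoxO1-KO replicate 27 for Mup9, Mup10, Mup-ps13 and Mup20, without replicate 26 for Mup-ps13, without WT replicate 23 for Mup10 and Mup-ps19, without 24 for Mup-ps19 and without 22 or 25 for Mup20. No paired analysis was possible because the replicate numbers 22 to 25 and 26 to 29 are not shared between the groups. Members with few counts are limited by depth, and near-identical genes by shared sequence.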

Other observations

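A run of neighbouring rows on chromosome 4 had few counts in MøFoxO1-KO replicate 29, a stretch chosen after its values were seen. From Mup15 to Mup-ps16, 11 rows had at least 10 counts in some liver, and replicate 29 was below every other MøFoxO1-KO liver in 9 of them and below every WT liver in 8. Mup15, Mup-ps12 and Mup-ps14 had 0 counts in replicate 29, against 48 to 448, 6 to 11 and 16 to 32 in the other MøFoxO1-KO livers. Mup17 had 14 against 1074 to 9452, Mup19 had 3 against 182 to 202, and Gm13775 had 55 against 339 to 362. Mup16 and Mup-ps15, within the same stretch, were not below the others, with 102 against 101 to 1027 counts and 8 against 8 to 22. Of the 15 tested members outside the stretch, 2 were below every WT liver in replicate 29.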
